A study of Mus musculus with 6 samples.

Results

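Immune checkpoint ligands are surface proteins through which a tumour cell can dampen the immune cells that touch it. The 10 genes described here encode such ligands, or surface enzymes that do the same through adenosine: Cd274, Pdcd1lg2, Cd276, Vtcn1, Pvr, Pvrl2, Lgals9, Cd47, Nt5e and Entpd1. They were chosen by symbol, as known ligands and ectoenzymes of this kind, and all 10 were found among the 43548 genes of the table. Pvrl2 is the older symbol of Nectin2.

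The cells were Met-1 TripZ-200c, a mouse mammary carcinoma line of FVB/NJ background, derived from a late tumour of the MMTV-PyMT transgenic model. They carry a lentiviral vector that makes the precursor of the microRNA miR-200c, with a red fluorescent tag, when doxycycline (Dox) is added. In the minus Dox group, 3 libraries came from cells given vehicle (water) for 48 h, and in the plus Dox group 3 libraries came from cells given 1 µg/mL Dox for 48 h. The question of the comparison was which mRNAs differ once miR-200c is induced. All 6 libraries come from 1 clone, which had been sorted for low expression of the tag without Dox and then for intermediate expression with Dox. Cells with the empty vector were not analysed here, so an effect of Dox itself and an effect of miR-200c cannot be told apart. The cultures were plated in triplicate, and the p-values measure only the spread between these cultures, which may be technical.

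As background, T cells, natural killer cells and macrophages carry inhibitory receptors, and a ligand on the target cell sets off the brake. PD-L1 and PD-L2 bind PD-1, the poliovirus receptor and nectin-2 bind TIGIT as well as the activating receptor CD226, and CD47 binds SIRP-alpha on macrophages as a signal against engulfment. CD39 and CD73 act in sequence on extracellular ATP, and the adenosine they make silences lymphocytes through its own receptors. In breast cancer, loss of the miR-200 family and gain of the ZEB factors accompany the epithelial-to-mesenchymal transition (EMT), and a link from this axis to PD-L1 has been described in other carcinoma models.

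The microRNA that the vector supplies is shown with its relatives, because the 3′ UTRs of the members were searched for their seeds. The sequences are RefSeq entries of GRCm38.p6, 5′ to 3′, with the seed (bases 2 to 8) in capitals.
mmu-miR-200c-3p: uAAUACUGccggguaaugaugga
mmu-miR-200b-3p: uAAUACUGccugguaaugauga
mmu-miR-429-3p: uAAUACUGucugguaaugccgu
mmu-miR-141-3p: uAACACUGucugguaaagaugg
mmu-miR-200a-3p: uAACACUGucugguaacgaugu
The first 3 share the seed AAUACUG, which pairs with the 7 bases CAGTATT in an mRNA. The other 2 share AACACUG, which pairs with CAGTGTT and differs from the first at a single base. The miR-200c gene lies at chr6:124718324-124718346 on the minus strand (mature sequence), beside that of miR-141. Mir200c was listed at 0 FPKM in all 6 libraries, as was Mir141, so these mRNA values do not show the induction. Zeb1 and Zeb2, well known targets of miR-200c with 5 CAGTATT matches each in the longest annotated 3′ UTR, can serve to check the labels. Zeb2 stood at 29.3 ± 1.43 FPKM minus Dox and at 8.29 ± 0.661 FPKM plus Dox (SD, n = 3 each). Zeb1 stood at 41.0, 42.1 and 42.3 FPKM minus Dox and at 19.8, 20.3 and 23.6 FPKM plus Dox. Both were lower in every plus Dox library, in the direction of the labels.

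FPKM is scaled by transcript length and library size, so levels of different genes can be set side by side. The groups were compared with limma on log2(FPKM + 0.1) for the 12879 genes whose mean reached 1 FPKM, with p-values adjusted over all of these. For genes with low FPKM the added 0.1 shrinks the fold. Of the 10 members, 6 passed this filter, 3 lay below it (Cd274, Pdcd1lg2 and Vtcn1), and Entpd1 was listed at 0 in all 6 libraries. An adjusted p under 0.05 was reached by 3 of the 6 tested members, where 15.0% of all tested genes reached it. Cd276 was higher plus Dox, as were 7.06% of tested genes, and Nt5e and Pvrl2 were lower, as were 7.97%. The 3 values plus Dox did not overlap the 3 values minus Dox in 5 of the 6 tested members, and in 35.0% of the 12875 tested genes with all 6 values. The median log2 fold change of the 6 tested members was 0.07, against 0.00 over all tested genes. The members thus moved in both directions, and the plot of values by library shows each of them.

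**Figure D1:**
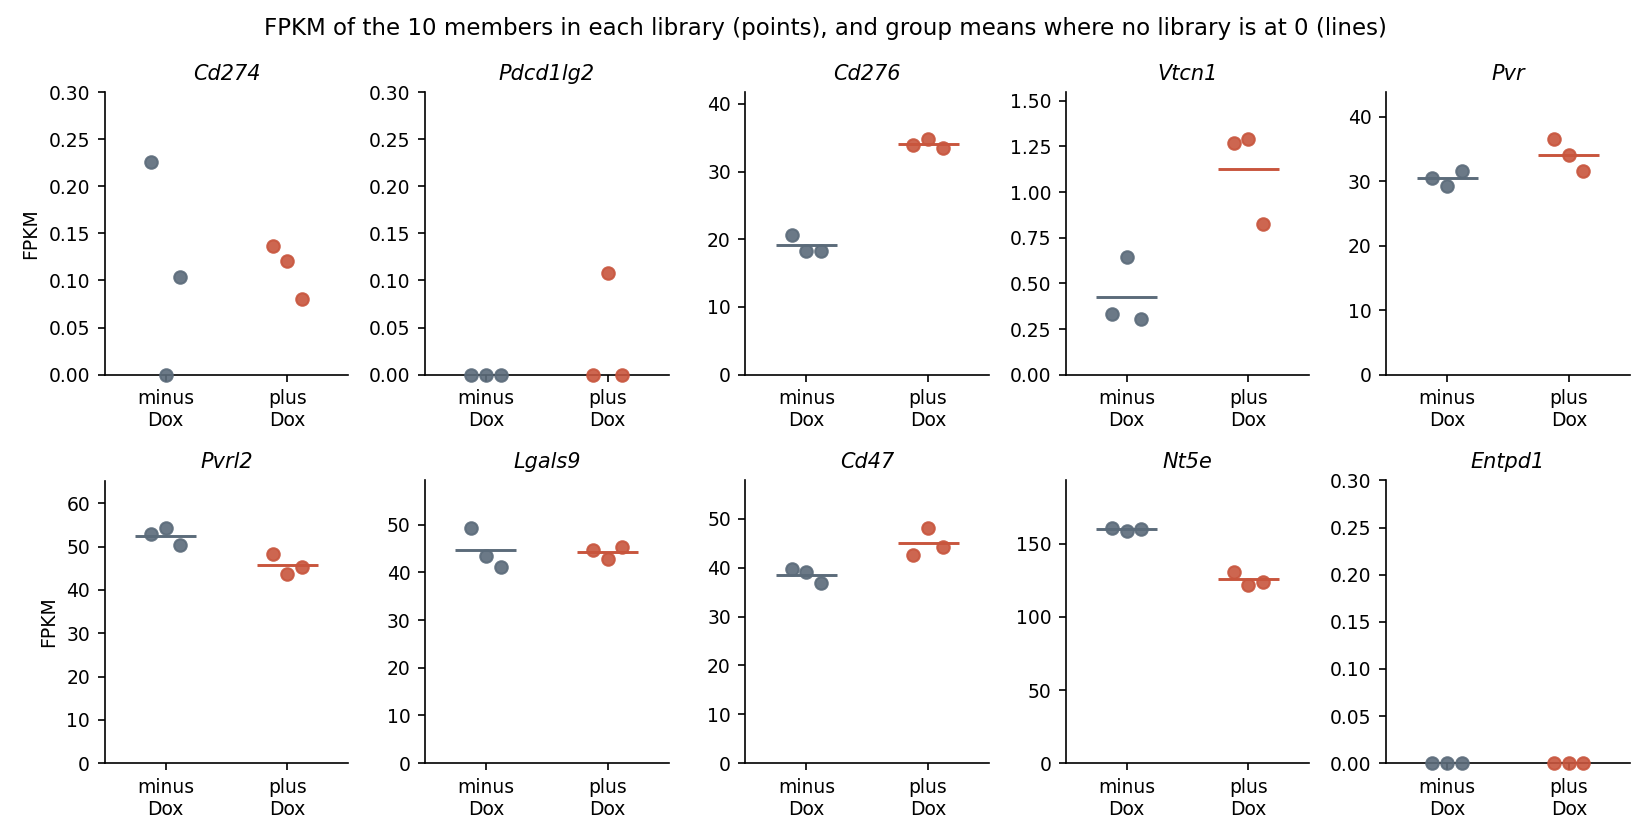
FPKM (y axis, from 0, with its own scale per gene) of the 10 members in the 3 minus Dox (grey) and 3 plus Dox (red) libraries; points are libraries and lines are group means, drawn where no library is at 0. Cd276 separates upwards and Nt5e downwards, whereas Cd274 and Pdcd1lg2 do not exceed 0.226 FPKM.

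Cd274 (ENSMUSG00000016496) encodes PD-L1, the main ligand of PD-1, and lies at chr19:29367455-29388095 of GRCm38. Its FPKM was 0.226, 0 and 0.104 in the minus Dox libraries and 0.137, 0.121 and 0.0803 in the plus Dox libraries. The values of both groups overlapped, and the highest and the lowest of the 6 were both minus Dox. Fitted without the filter, where 7.84% of 20513 genes reached an adjusted p under 0.05, Cd274 had a log2 fold change of 0.17 (95% interval -0.94 to 1.29, limma, adjusted p = 0.863). The interval spans a near halving as well as more than a doubling, so these values do not settle whether Cd274 differs. Without minus Dox library 2 the sign turned, to -0.28 (adjusted p = 0.706). Multiplied by the relative depth of its library, each value lay close to a whole multiple of 0.0452 FPKM, the largest step that fitted at a tolerance of 0.1 steps (largest gap 0.024). The multiples were 5, 0 and 3 minus Dox and 3, 4 and 2 plus Dox, as values resting on few reads would be. No such step was found for Vtcn1 in a search up to a multiple of 40, and the relative depths are themselves rough estimates. An antisense transcript, AC119228.1, covers 511 bases (14.1%) of its exons on the opposite strand. Whether the counting used strand is not given in the sources used here, so reads of Cd274 and its antisense partner cannot be told apart.

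Pdcd1lg2 (ENSMUSG00000016498), which encodes the other PD-1 ligand, PD-L2, starts 22.8 kb downstream of Cd274 on the same strand. It was listed at 0 FPKM in 5 libraries and at 0.108 FPKM in the plus Dox library with replicate number 2. No fold is given against a group listed at 0, and the adjusted p from limma without the filter was 0.602. All 37 mitochondrial genes of the table were also listed at 0 in all libraries, so a 0 in this table may also be a failed estimate.

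Cd276 (ENSMUSG00000035914, chr9:58524298-58555437, minus strand) encodes B7-H3, a B7 family protein found on many carcinomas whose receptor is not settled. Its FPKM was 20.7, 18.3 and 18.3 in the minus Dox libraries and 34.0, 34.8 and 33.5 in the plus Dox libraries. Every plus Dox value stood well above every minus Dox value, and the 3 plus Dox values were close to each other. The mean rose 1.78-fold, from 19.1 ± 1.41 to 34.1 ± 0.621 FPKM (SD, n = 3 each). On the log2 scale the change was 0.83 (SE 0.0652, limma, adjusted p = 4.28e-04), the largest among the 6 tested members. It passed in all 15 alternatives, with a log2 fold change between 0.80 and 0.89. Gm10657 overlaps 416 bases (11.4%) of the Cd276 exons on the opposite strand, so a share of this level is uncertain in the same way as for Cd274.

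Vtcn1 (ENSMUSG00000051076, chr3:100825459-100896922) encodes B7-H4, a B7 family protein that inhibits T cells and is known from breast and other gland tumours. Its FPKM was 0.331, 0.647 and 0.304 in the minus Dox libraries and 1.27, 1.29 and 0.826 in the plus Dox libraries. The groups did not overlap, although all 6 values were low. Without the filter, limma gave a log2 fold change of 1.25 (95% interval 0.35 to 2.16) at an adjusted p of 0.113. It did not pass in any of 13 alternatives, whose adjusted p ranged from 0.0697 to 0.261.

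Pvr and Pvrl2 encode the poliovirus receptor (CD155) and nectin-2 (CD112), adhesion proteins that lie 153.1 kb apart on the minus strand of chromosome 7. Pvr (ENSMUSG00000040511, chr7:19903578-19921160) had 30.5, 29.2 and 31.5 FPKM minus Dox and 36.5, 34.0 and 31.6 FPKM plus Dox. The groups did not overlap, but the lowest plus Dox value was next to the highest minus Dox value. Its log2 fold change of 0.16 (95% interval 0.00 to 0.32) did not pass, with a limma adjusted p of 0.164. Pvrl2 (ENSMUSG00000062300, chr7:19716644-19750483) had 52.9, 54.4 and 50.4 FPKM minus Dox and 48.2, 43.7 and 45.2 FPKM plus Dox. All 3 plus Dox values were below all 3 minus Dox values. The mean fell from 52.6 ± 2.02 to 45.7 ± 2.26 FPKM (SD, n = 3 each), a log2 fold change of -0.20 (SE 0.0539, limma, adjusted p = 0.0475). This call is at the edge: it held in 4 of 15 alternatives, with adjusted p between 0.0412 and 0.136. With a library left out, the Pvrl2 adjusted p was 0.113, 0.134 and 0.0610 without minus Dox library 1, 2 or 3 and 0.0471, 0.136 and 0.133 without plus Dox library 1, 2 or 3. The antisense gene Gm20512 overlaps 135 bases (3.86%) of the Pvrl2 exons and was at 0 to 0.589 FPKM. The ratio of Pvrl2 to Pvr, in FPKM, was 1.74, 1.86 and 1.60 minus Dox and 1.32, 1.28 and 1.43 plus Dox. So Pvrl2 was the more abundant of the pair in all 6 libraries, and the ratio was lower in each plus Dox library; the ratio itself was not tested.

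Lgals9 (ENSMUSG00000001123, chr11:78962974-78984946) encodes galectin-9, a sugar-binding protein and a ligand of TIM-3. Its FPKM was 49.4, 43.4 and 41.2 in the minus Dox libraries and 44.6, 42.8 and 45.3 in the plus Dox libraries. The groups overlapped, with the highest and the lowest value both minus Dox. The log2 fold change was -0.01, with a 95% interval from -0.18 to 0.16 (limma, adjusted p = 0.942).

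Cd47 (ENSMUSG00000055447, chr16:49800533-49915010) encodes the CD47 signal against engulfment. Its FPKM was 39.7, 39.1 and 36.8 in the minus Dox libraries and 42.6, 48.2 and 44.3 in the plus Dox libraries. All 3 plus Dox values lay above all 3 minus Dox values. The log2 fold change of 0.22 (95% interval 0.08 to 0.37) just missed the threshold, with a limma adjusted p of 0.0504. It passed in 4 of 15 alternatives, with adjusted p between 0.0414 and 0.134 over all of them, so Cd47 and Pvrl2 lie on either side of the threshold with changes of nearly the same size.

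Nt5e (ENSMUSG00000032420, chr9:88327197-88372092) encodes CD73, the enzyme that turns AMP into adenosine at the cell surface and a known marker of mesenchymal cells. Its FPKM was 161, 159 and 160.3 in the minus Dox libraries and 131, 122 and 124 in the plus Dox libraries. The minus Dox values were almost equal, and all plus Dox values were clearly below them. The mean fell from 160.3 ± 1.15 to 125 ± 4.62 FPKM (SD, n = 3 each), so it was 1.28-fold higher minus Dox. The log2 fold change was -0.35 (SE 0.0366, limma, adjusted p = 0.00126), and it passed in all 15 alternatives with values between -0.38 and -0.33. Entpd1 (ENSMUSG00000048120, chr19:40612366-40741602) encodes CD39, the enzyme of the step before, from ATP and ADP to AMP. It was listed at 0 FPKM in each of the 3 minus Dox and each of the 3 plus Dox libraries.

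The changes with their errors are drawn in the plot of log2 fold changes, which leaves out Pdcd1lg2 and Entpd1 because a group of theirs is listed at 0.

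**Figure D2:**
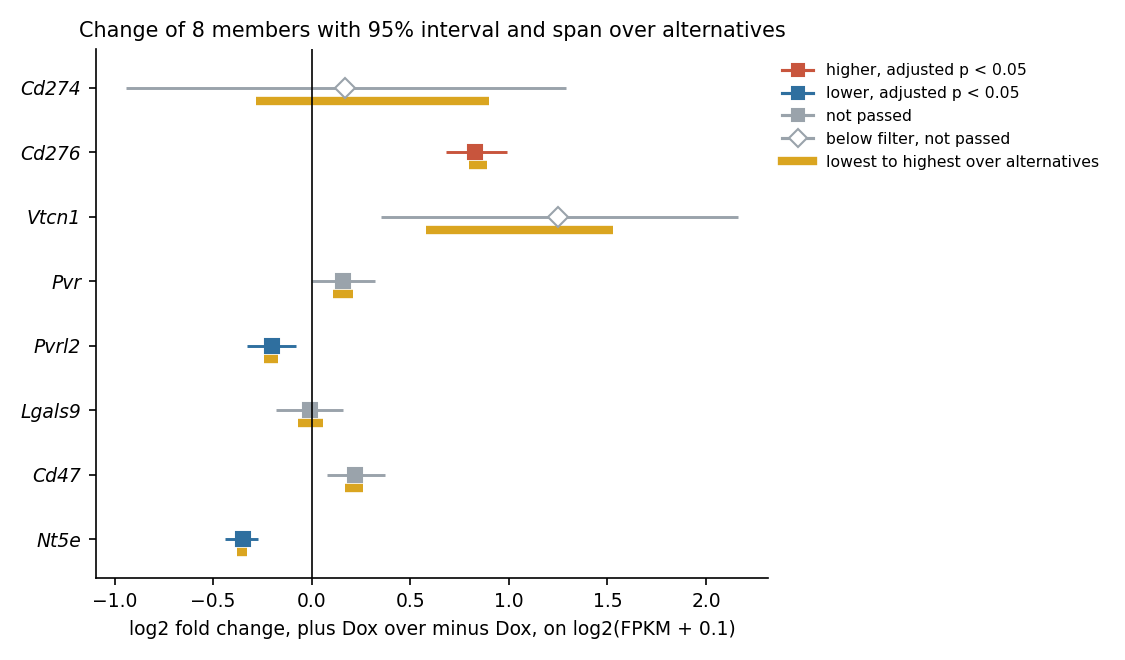
Log2 fold change of 8 members, plus Dox over minus Dox (x axis), with the 95% limma interval (thin lines) and the lowest to highest value over the alternatives (thick yellow lines); open diamonds are members below 1 FPKM. Both lines keep clear of 0 for Cd276 at 0.83 and Nt5e at -0.35, and also for Pvrl2, Cd47 and Vtcn1. Of these, Cd47 and Vtcn1 did not pass after adjustment. The Pvr interval starts at 0.00, and the widest intervals are those of Cd274 and Vtcn1.

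In the minus Dox group the order of the levels by mean FPKM was Nt5e, Pvrl2, Lgals9, Cd47, Pvr, Cd276, Vtcn1. The libraries of neighbours in this order did not overlap in FPKM, whereas Cd274, next in order, overlapped Pdcd1lg2. In the plus Dox group Nt5e was again the highest, at a mean of 125 FPKM. There Pvrl2, Cd47 and Lgals9 had means of 45.7, 45.1 and 44.2 FPKM and overlapped, as did Cd276 at 34.1 and Pvr at 34.0 FPKM. So Cd276 stood below Pvr in every minus Dox library and could not be told from it plus Dox. Ranked among the 18971 genes above 0 in the minus Dox mean, Nt5e was number 952 and Cd274 number 16074. The summed FPKM of the 10 members was 355, 344 and 339 minus Dox and 338, 327 and 324 plus Dox. Nt5e made up 45.4%, 46.2% and 47.3% of this sum minus Dox and 38.7%, 37.3% and 38.1% plus Dox. The ratio of Cd276 to Nt5e in FPKM went from 0.128, 0.115 and 0.114 to 0.260, 0.285 and 0.272. These shares and ratios describe the mixture of mRNAs and were not tested.

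**Figure D3:**
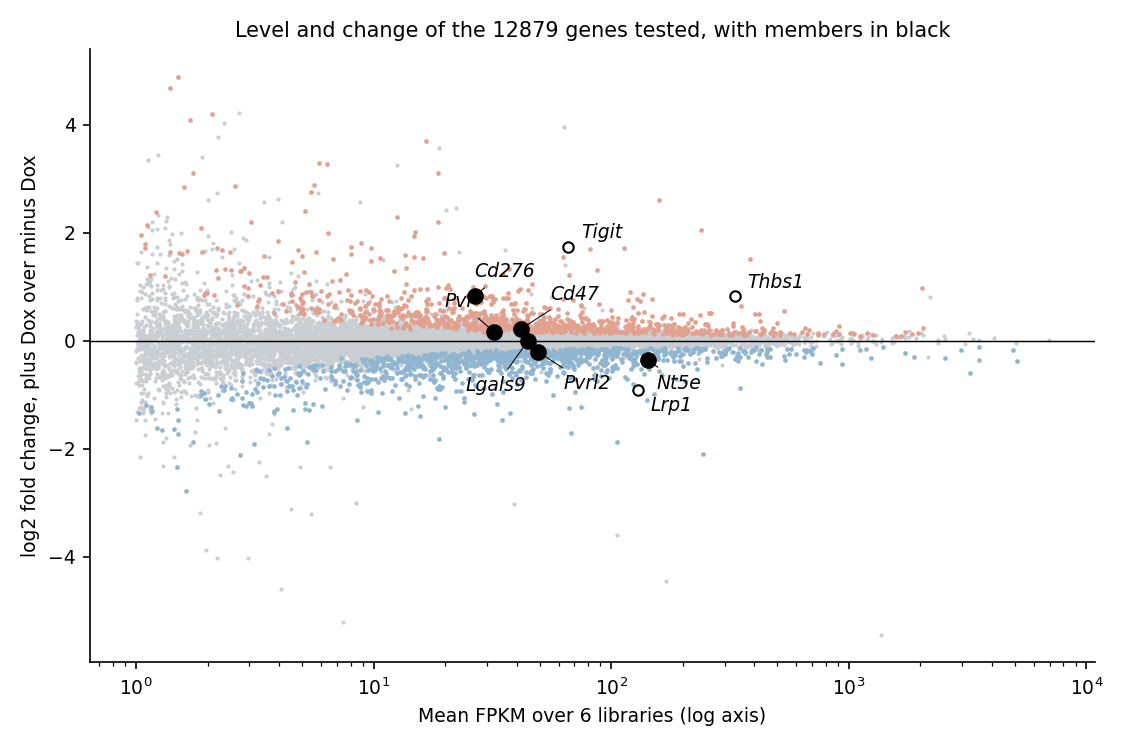
Mean FPKM over the 6 libraries (x axis, log) and log2 fold change, plus Dox over minus Dox (y axis), of the 12879 tested genes; red and blue points passed as higher and lower, black circles are the 6 tested members, and white circles are Tigit, Thbs1 and Lrp1. Cd276 lies above 0 and Nt5e below it among the genes that passed, and Pvr, Lgals9, Cd47 and Pvrl2 lie near 0.

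Matches to the miR-200c seed were counted in the longest annotated 3′ UTR of each member. A match is a description of the sequence and not a proven site, and the reference sequence may differ from that of FVB/NJ cells. Only Nt5e and Entpd1 held CAGTATT, with 1 match each, and the other 8 members held none. The 2 matches are shown with the 7 bases in capitals. Entpd1 was listed at 0 in all 6 libraries, so its match can be set beside no change.
Nt5e 3′ UTR, chr9:88372014-88372035, plus strand: ttatgcagCAGTATTgagaaat
Entpd1 3′ UTR, chr19:40740549-40740570, plus strand: tttcctacCAGTATTgccgaaa
The match of Nt5e begins at base 1705 of a 3′ UTR of 1775 bases. Among 10812 tested genes with a 3′ UTR, 16.9% held CAGTATT. Of the 1481 genes with 1 match, 15.7% were lower plus Dox, with a median log2 fold change of -0.04. Of the 8989 genes with none, 7.40% were lower, with a median of 0.01. With 2 matches the median was -0.07 (275 genes), and with 3 or more it was -0.15 (67 genes), of which 31.3% were lower. Genes with more matches also had longer 3′ UTRs, with a median of 1185 bases for none and 5123 bases for 3 or more, and the part of length in this was not tested. Nt5e, at -0.35, was thus further down than the median gene with 1 match. Pvrl2 was lower without a match.

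The 7 bases for the miR-141 and miR-200a seed, CAGTGTT, stood in the 3′ UTRs of Cd274 (1 match), Cd276 (1 match) and Cd47 (3 matches), and in 22.8% of tested genes. In Cd274 it begins at base 2 of the 3′ UTR, next to the stop codon.
Cd274 3′ UTR, chr19:29385413-29385427, plus strand: gCAGTGTTgaaccct
This sequence is shown because PD-L1 is the member most often linked to the miR-200 family. The mouse 3′ UTR of 2683 bases held CAGTGTT and did not hold CAGTATT. Other kinds of match to miR-200c were not searched. The authors, citing earlier work, call PD-L1 a direct target of miR-200c.

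**Figure D4:**
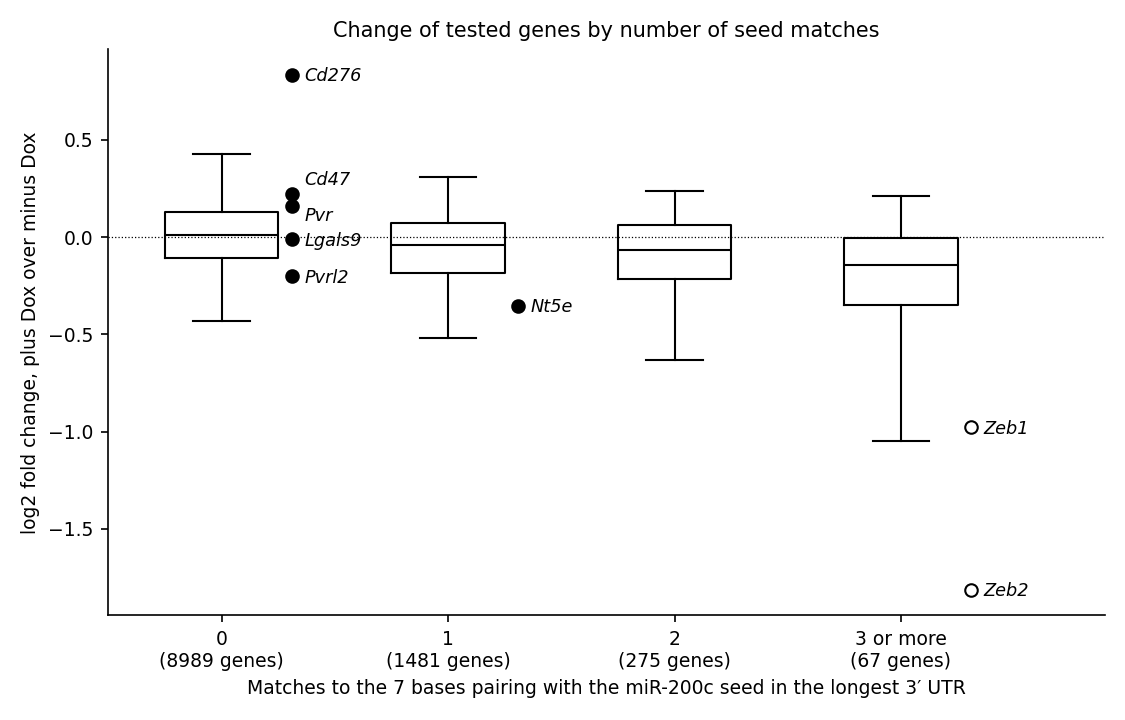
Log2 fold change, plus Dox over minus Dox (y axis), of tested genes grouped by the number of matches to the 7 bases pairing with the miR-200c seed (x axis); boxes show the quartiles and median, whiskers the 5th and 95th percentiles, black circles the 6 tested members and white circles Zeb1 and Zeb2. The medians run from 0.01 with no match to -0.15 with 3 or more, and Nt5e lies below the box of genes with 1 match.

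Promoter windows from RefSeq (GRCm38.p6, 250 bases before to 50 after the start) were found for 9 of the 10 members; Pvr was not among them. The E-box CAGGTG, a sequence that ZEB proteins bind, was searched on both strands and is held by 20.2% of 32851 windows. It occurred once each in the windows of Cd274 and Pvrl2 and in 1 of 2 windows of Entpd1. The interferon-type motif TTCNNNGAA, whose reverse complement is the same, is held by 8.30% of windows and by none of those of the members.

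The receptors of these ligands are normally made by immune cells. Of 16 receptor genes listed, 15 were matched, 2 were tested, 1 was higher and 0 were lower; the median of the 2 was 0.78. Tigit, the inhibitory receptor for Pvr and Pvrl2, had 29.7, 31.9 and 28.8 FPKM minus Dox and 91.2, 111 and 103 FPKM plus Dox. Every plus Dox value was far above every minus Dox value, and the mean rose 3.37-fold (log2 fold change 1.74, SE 0.0782, limma, adjusted p = 4.48e-05). It passed in all 15 alternatives. Its T-cell companions were not seen: Cd3e, Cd4 and Cd8a were listed at 0 in all 6 libraries, as were Cd226, a receptor for Pvr and Pvrl2, and Cd96, a receptor for Pvr. Where in the gene the reads counted for Tigit lie was not analysed here, so these values may not stand for its full mRNA. Of the 919 bases of the Tigit transcript, 89 (9.68%) are shared at 95% identity or more with Gm49620, and 67 genes share some stretch with it. Sirpa, the receptor for Cd47, had 56.3, 53.4 and 57.1 FPKM minus Dox and 46.7, 50.4 and 49.7 FPKM plus Dox. The groups did not overlap, and the log2 fold change of -0.18 just missed the threshold (limma, adjusted p = 0.0505, 0.0380 to 0.132 over alternatives, of which 4 of 15 passed).

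Of 26 other ligands of immune receptors, 12 were tested, 3 were higher and 1 was lower, with a median log2 fold change of 0.06. Btn1a1, a butyrophilin related to the B7 family, had 3.78, 3.33 and 4.53 FPKM minus Dox and 12.9, 13.8 and 14.6 FPKM plus Dox. It rose 3.55-fold by the means (log2 fold change 1.81, limma, adjusted p = 2.96e-04) and passed in all 15 alternatives. Icosl, the ligand of the costimulatory receptor ICOS, had 2.58, 2.10 and 2.57 FPKM minus Dox and 3.40, 4.93 and 4.04 FPKM plus Dox. Its groups did not overlap. It had a log2 fold change of 0.74 (limma, adjusted p = 0.0409) and passed in 6 of 14 alternatives (0.0360 to 0.129). The Icosl adjusted p was 0.0744, 0.107 and 0.0805 without minus Dox library 1, 2 or 3 and 0.0458, 0.129 and 0.114 without plus Dox library 1, 2 or 3. Lgals1, a galectin that is among the most abundant mRNAs here, fell from a mean of 5166 ± 66.0 to 4611 ± 87.9 FPKM (SD, n = 3 each; log2 fold change -0.16, limma, adjusted p = 0.00355), but with quantile normalization it was at 0.07 (adjusted p = 0.435). It passed in 12 of 15 alternatives, with adjusted p of 0.0557 without the trend and 0.0503 without the filter. Lgals3, another galectin, rose from 409.6 ± 9.53 to 447 ± 11.4 FPKM (SD, n = 3 each; log2 fold change 0.13, limma, adjusted p = 0.0372). It passed in 4 of 15 alternatives (0.0335 to 0.131). Its call was lost in every fit with a library left out, where the adjusted p was 0.110, 0.0521 and 0.103 without minus Dox library 1, 2 or 3 and 0.0713, 0.0658 and 0.121 without plus Dox library 1, 2 or 3. Cd80 and Cd86, the ligands of CTLA-4 and CD28, were listed at 0 in all 6 libraries.

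Of 10 genes around CD47, 8 were tested, 1 was higher and 4 were lower, with a median of -0.21. Thbs1, thrombospondin-1, is a secreted ligand of CD47. Its FPKM was 239, 237 and 242 minus Dox and 424, 425 and 419.6 plus Dox, with little spread within either group. It rose 1.77-fold (log2 fold change 0.82, SE 0.0251, limma, adjusted p = 8.78e-06), and the ratio of Thbs1 to Cd47 in FPKM went from 6.02, 6.06 and 6.57 to 9.94, 8.82 and 9.47. Lrp1, the macrophage receptor for the "eat me" signal calreticulin, which tumour cells also make, had 174, 167 and 166 FPKM minus Dox and 82.9, 97.9 and 88.7 FPKM plus Dox. It fell by 0.91 on the log2 scale (limma, adjusted p = 2.33e-04). Calr, calreticulin itself, had 900.1, 872 and 882 FPKM minus Dox and 897, 887 and 852 FPKM plus Dox, which overlap (limma, adjusted p = 0.846). Cd24a, which carries the Siglec-10 type signal against engulfment, fell from 586 ± 12.7 to 484 ± 12.2 FPKM (SD, n = 3 each; log2 fold change -0.28, limma, adjusted p = 0.00159); its transcript shares 11.9% of its length with the pseudogene Gm6212, which makes the level uncertain. Qpct, which encodes a glutaminyl cyclase, had a log2 fold change of -0.68 (limma, adjusted p = 0.0288) and passed in 6 of 14 alternatives (0.0272 to 0.0893). The Qpct adjusted p was 0.0688, 0.0893 and 0.0737 without minus Dox library 1, 2 or 3 and 0.0387, 0.0632 and 0.0701 without plus Dox library 1, 2 or 3. Qpctl, the related gene of the same list, named after its values were seen, had means of 17.2 FPKM minus Dox and 14.7 FPKM plus Dox. Its log2 fold change of -0.22 did not pass (limma, adjusted p = 0.140). Itgav, an integrin subunit named after its values were seen, was at -0.19 (limma, adjusted p = 0.0269) and passed in 7 of 15 (0.0229 to 0.0849). The Itgav adjusted p was 0.0778, 0.0813 and 0.0229 without minus Dox library 1, 2 or 3 and 0.0795, 0.0849 and 0.0540 without plus Dox library 1, 2 or 3. Below the filter 1 gene passed without it: Itgb3, also named after, was at 1.33, 1.27 and 1.26 FPKM minus Dox and at 0.516, 0.361 and 0.430 FPKM plus Dox (limma, adjusted p = 0.0314, 0.00731 to 0.117 over alternatives). The Itgb3 adjusted p was 0.0908, 0.0911 and 0.0838 without minus Dox library 1, 2 or 3 and 0.0644, 0.0928 and 0.0982 without plus Dox library 1, 2 or 3.

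Of 21 other genes that make, break down, carry or sense extracellular nucleotides and adenosine, 11 were tested, 1 was higher and 2 were lower, with a median of 0.03. Slc29a1, the nucleoside transporter ENT1 and the most abundant of them, fell from 222 ± 9.87 to 171 ± 9.11 FPKM (SD, n = 3 each). Its log2 fold change was -0.37 (limma, adjusted p = 0.00410); an antisense gene, Gm17080, shares 12.5% of its transcript. Alpl, a phosphatase that can also turn AMP into adenosine, had 10.4, 9.70 and 9.24 FPKM minus Dox and 5.97, 5.50 and 6.68 FPKM plus Dox. It fell by 0.69 on the log2 scale (limma, adjusted p = 0.00638). Nt5e and Alpl were thus both lower, and Nt5e was the more abundant in every library. Bst1, an enzyme that uses NAD, rose with a log2 fold change of 1.34 (limma, adjusted p = 0.0316) from 1.97, 1.92 and 0.931 to 3.94, 4.95 and 3.34 FPKM, and passed in 7 of 14 alternatives (0.0245 to 0.108). The Bst1 adjusted p was 0.0440, 0.0503 and 0.0400 without minus Dox library 1, 2 or 3 and 0.0869, 0.108 and 0.0665 without plus Dox library 1, 2 or 3. Adk, adenosine kinase, had means of 75.6 and 77.8 FPKM and overlapped (limma, adjusted p = 0.624). The adenosine receptors Adora1, Adora2a and Adora2b were below 1 FPKM in every library, and Adora3 was listed at 0.

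Of 24 genes listed as regulators of PD-L1, 23 were matched by symbol and tested, 5 were higher and 3 were lower, with a median of 0.01. The entry used for Csnk2a1, which did not pass (limma, adjusted p = 0.0935), has an identifier that GENCODE names Gm10031. Its transcript shares 100% of its length with Csnk2a1, so this value may not stand for Csnk2a1 itself. The higher genes were B3gnt3, Cmtm4, Irf2, Cmtm6 and Ptpn2, of which the last 3 are named after their values were seen. B3gnt3, a glycosyltransferase that acts on PD-L1, had 10.6, 10.4 and 10.9 FPKM minus Dox and 21.5, 20.3 and 20.4 FPKM plus Dox (log2 fold change 0.96, limma, adjusted p = 1.91e-04). Cmtm4, which protects PD-L1 from breakdown, had 21.6, 20.7 and 20.0 FPKM minus Dox and 31.2, 34.4 and 34.2 FPKM plus Dox (log2 fold change 0.68, limma, adjusted p = 7.31e-04). In both genes the groups were far apart, while Cd274 itself stayed under 0.3 FPKM in every library. Cmtm6, the relative of Cmtm4, was at 0.29 (limma, adjusted p = 0.0410) and passed in 7 of 15 alternatives (0.0361 to 0.136). The Cmtm6 adjusted p was under 0.05, 0.115 and 0.111 without minus Dox library 1, 2 or 3 and 0.0705, 0.105 and 0.136 without plus Dox library 1, 2 or 3. Irf2, a brake on interferon responses, was at 0.36 (limma, adjusted p = 0.0492) and passed in 4 of 15 (0.0234 to 0.135). That of Irf2 was 0.0234, 0.133 and 0.132 without minus Dox library 1, 2 or 3 and 0.135, 0.130 and 0.107 without plus Dox library 1, 2 or 3. Ptpn2, a phosphatase that dampens interferon signalling, was at 0.26 (limma, adjusted p = 0.00414) and passed in all 15. The lower genes were Zeb2 (log2 fold change -1.81, limma, adjusted p = 4.48e-05), Zeb1 (-0.98, limma, adjusted p = 3.62e-04) and Cdk4 (-0.24, limma, adjusted p = 0.00821, and 0.0528 in the unmoderated model). Cdk4 overlaps Tspan31 on the opposite strand over 19.7% of its exons. Of the interferon-gamma pathway that induces PD-L1, Ifngr1, Ifngr2, Jak1, Jak2, Irf1 and Socs1 were all tested and none passed. Cd274 was thus near 0 in cells in which these mRNAs had means of at least 1 FPKM. Myc, which is abundant here, had a log2 fold change of 0.10 (limma, adjusted p = 0.189).

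Of 19 other genes known for immune suppression, by secreted factors, by amino acid use or by shielding from complement, 9 were tested, 3 were higher and 1 was lower, with a median of -0.04. Hmox1, heme oxygenase 1, fell from 124 ± 6.51 to 87.3 ± 1.81 FPKM (SD, n = 3 each; log2 fold change -0.50, limma, adjusted p = 8.01e-04). Ptgs2, which makes prostaglandins, was at 0.22 (limma, adjusted p = 0.0327) and Tgfb3 at 0.15 (limma, adjusted p = 0.0420), and each passed in 7 of 15 alternatives (0.0228 to 0.110 and 0.0346 to 0.125). The Ptgs2 adjusted p was 0.0713, 0.0877 and 0.0228 without minus Dox library 1, 2 or 3 and 0.0717, 0.0768 and 0.110 without plus Dox library 1, 2 or 3. That of Tgfb3 was 0.104, 0.108 and 0.0681 without minus Dox library 1, 2 or 3 and 0.105, 0.125 and 0.0817 without plus Dox library 1, 2 or 3. Csf1, a macrophage growth factor and the most abundant of this list, had means of 449 and 455 FPKM (limma, adjusted p = 0.667). Ido1, Tdo2, Nos2 and Il10 were listed at 0 in all 6 libraries.

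**Figure D5:**
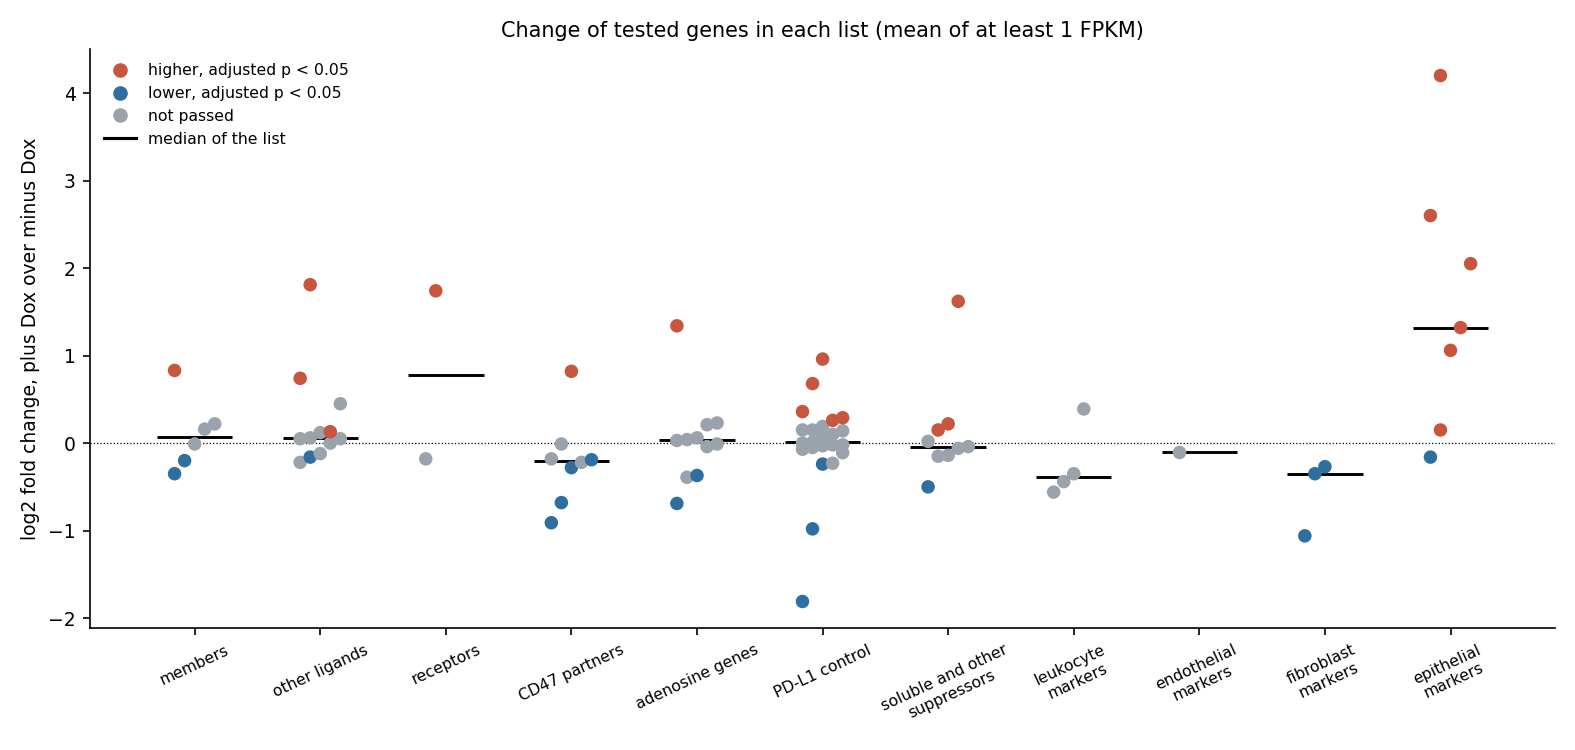
Log2 fold change, plus Dox over minus Dox (y axis), of the tested genes of each list (x axis); each point is a gene, coloured red or blue where it passed as higher or lower, and black lines are list medians. Epithelial markers have the highest median, 1.32, and the median of the members is 0.07.

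Marker lists were read for the identity of the cells. Of 18 leukocyte markers, 4 were tested and none passed with all libraries, with a median of -0.39, and 8 were listed at 0, Cd3e and Ncr1 among them. Their summed FPKM was 25.3, 26.9 and 20.1 minus Dox and 20.6, 17.7 and 22.1 plus Dox, of which S100a8 was the most abundant at a mean of 8.13 FPKM. S100a8 had an adjusted p of 0.190 and Cd68 one of 0.326 from limma, and without the minus Dox library numbered 3 Cd68 passed with 0.0310. Ptprc, the pan-leukocyte gene, stayed under 0.2 FPKM in every library. Of 6 endothelial markers, Cdh5 was tested, at a mean of 4.30 FPKM and a log2 fold change of -0.10 (limma, adjusted p = 0.632), and Kdr had an adjusted p of 0.468 without the filter. The summed FPKM of these 6 was 4.47, 4.77 and 5.16 minus Dox and 4.72, 4.20 and 4.28 plus Dox. So many of these markers were at or near 0, but S100a8, Cd68, Coro1a, Lyz2 and Cdh5 were not. Coro1a, named after its values were seen, was at 2.52, 3.89 and 4.13 FPKM minus Dox and at 4.13, 3.99 and 5.68 FPKM plus Dox, with a log2 fold change of 0.39 that did not pass (limma, adjusted p = 0.320). Nt5e, Cd276 and Tigit stood at over 15 FPKM in every library.

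Of 8 fibroblast-type markers 3 were tested and all 3 were lower, with a median of -0.35. Below the filter, Col1a2, named after its values were seen, was at 0.0300, 0.244 and 0.0687 FPKM minus Dox and at 0.318, 0.609 and 0.506 FPKM plus Dox. These are higher without overlap, and did not pass (limma, adjusted p = 0.115 without the filter). Vim, the most abundant, fell from 3961 ± 110.0 to 3104 ± 86.9 FPKM (SD, n = 3 each; log2 fold change -0.35, limma, adjusted p = 5.66e-04, and 0.0514 with quantile normalization). Pdgfrb fell from 32.4 ± 1.50 to 15.5 ± 0.212 FPKM (SD, n = 3 each; log2 fold change -1.06, limma, adjusted p = 9.78e-05). Pdgfra was at -0.27 (limma, adjusted p = 0.0410) and passed in 6 of 15 alternatives (0.0362 to 0.119). Its adjusted p was 0.103, 0.0942 and 0.102 without minus Dox library 1, 2 or 3 and 0.0501, 0.102 and 0.119 without plus Dox library 1, 2 or 3. Of 15 epithelial markers 7 were tested, 6 were higher and 1, Gata3, was lower (-0.16, limma, adjusted p = 0.0420, 0.0346 to 0.112 over alternatives, 5 of 15 passed). The Gata3 adjusted p was 0.112, 0.0682 and 0.0988 without minus Dox library 1, 2 or 3 and 0.109, 0.0805 and 0.0889 without plus Dox library 1, 2 or 3. Cldn3, also named after its values were seen, was higher at 0.15 (limma, adjusted p = 0.0342) and passed in 7 of 15 alternatives (0.0254 to 0.109). With a library left out, Cldn3 passed in 1 of 6 fits (limma, adjusted p 0.0455 to 0.109). Krt7 rose from 45.0 ± 2.26 to 274 ± 1.13 FPKM (SD, n = 3 each; log2 fold change 2.60, limma, adjusted p = 8.85e-07) and Krt18 from 93.2 ± 2.78 to 386 ± 19.6 FPKM (SD, n = 3 each; log2 fold change 2.05, limma, adjusted p = 3.61e-06). Epcam was at 0.0844, 0.137 and 0.161 FPKM minus Dox and at 4.31, 3.88 and 3.98 FPKM plus Dox (log2 fold change 4.20, limma, adjusted p = 5.26e-04). Elf3 was at 1.32 (limma, adjusted p = 0.0315) and passed in 6 of 14 alternatives (0.0111 to 0.107). The Elf3 adjusted p was 0.0111, 0.0709 and 0.0884 without minus Dox library 1, 2 or 3 and 0.0841, 0.107 and 0.0812 without plus Dox library 1, 2 or 3. Cdh1, below the filter, was at 0.0776, 0.0559 and 0.0419 FPKM minus Dox and at 0.554, 0.692 and 1.24 FPKM plus Dox (limma, adjusted p = 0.0125 without the filter). It passed in 9 of 13 alternatives, but not when blocked by replicate number (0.0721), in the unmoderated model (0.0983), or without minus Dox library 2 (0.0503) or 3 (0.0505). Krt5 and Krt19 were listed at 0. The summed FPKM of the 15 epithelial markers was 354, 337 and 345 minus Dox and 852, 892 and 899 plus Dox, beside the lower Nt5e and the higher Cd276. The part of these differences in the changes of Nt5e, Cd276 and Pvrl2 was not tested.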

How the data were processed

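The authors made TruSeq Stranded libraries, sequenced single reads of 50 bases, mapped them to the mouse genome with gSNAP (the methods name both GRCm38.p6 and an FVB/NJ assembly, the processing notes only GRCm38.p6, and which one the FPKM rest on could not be settled; the FVB/NJ assembly was not used here) and used Cufflinks for the FPKM per gene and library that the authors deposited. The table has 43611 rows and 43548 gene identifiers; where an identifier or symbol was repeated, only the entry with the highest mean was used (63 entries of repeated identifiers were dropped). A placeholder, 999999999, stood in 6 places in 4 genes, none of them a member, and was treated as missing. The deposited group means, fold values, p-values and q-values of the authors' own comparison were not used. There were 0 unused columns of per-sample values. Groups and replicate numbers come from the labels.

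Read numbers cannot be had from FPKM. Library sums of FPKM ran from 800268 to 815139, and 16867 to 18012 genes were above 0. Relative depth is a rough estimate, the most frequent ratio among the lowest 15% of values to those of minus Dox library 1, on which 5.72% to 16.7% of the genes used agreed; it was 1, 0.920 and 1.31 for the minus Dox and 0.988, 1.49 and 1.11 for the plus Dox libraries. At most 2 genes above 0 had the same value in any pair of libraries.

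R 4.3.3 and limma 3.58.1 (lmFit, eBayes with a trend, group as the only term) served to fit log2(FPKM + 0.1) of all genes whose mean reached 1 FPKM, with Benjamini-Hochberg adjustment over all of them and a threshold of 0.05. Members and other genes under the filter come from the same model without it, over 20513 genes. The model was tested on simulated data. The members and gene lists were chosen with earlier results of these data known. Named genes were the 10 members and, in each other list, up to 4 genes with the largest absolute change among those that passed and the 2 with the highest mean; genes most like Cd274 were to be named only if its mean reached 1 FPKM, which it did not. Further genes are said to be named after their values were seen, which also holds for Gata3, Cdh1, Lyz2, Ptprc and the other genes mentioned in the lists without a test value. Pvrig and Cd58 were not matched. The entry used for Pnp, in the adenosine list, has an identifier that GENCODE names Gm49342 and shares 96.3% of its transcript with Pnp. It did not pass (limma, adjusted p = 0.215). Coordinates, exons and 3′ UTRs are those of GENCODE for GRCm38. Longest transcripts were compared by BLAST 2.17.0 for stretches of 50 bases or more that were 95% identical. Alternatives were a pseudocount of 1 or 0.01, no filter or a mean of at least 5 FPKM, quantile normalization, scaling to one median, an unmoderated linear model on log2(FPKM + 1), no trend, the replicate number as a block, and each library left out. Python 3.11.15, numpy 2.4.6, pandas 2.3.3 and matplotlib 3.10.9 were used.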

Additional observations from a re-analysis of the deposited data

How the results depend on the processing

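Over 848 fits of 58 named genes under alternatives, 700 stayed on the same side of the threshold, 138 lost the call, 9 gained it and 1 lost it with a change of sign: Lgals1 was at 0.07 with quantile normalization (adjusted p = 0.435). Signs also turned for genes without a call: Cd274 was at -0.28 without minus Dox library 2, Lgals9 at 0.06 without minus Dox library 1 and at 0.01 without plus Dox library 2, and Calr at 0.01 without plus Dox library 3, among others. Among 128 such fits of members, 11 (all Pvrl2) lost and 4 (all Cd47) gained it. Cd276 and Nt5e passed in all. The number of members called was 2 to 4. The number of genes called was 1290 to 1992 with all libraries and 1048 to 1359 with a library left out, where fewer samples enter.

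Replicate numbers are shared by the groups. Deviations of same-numbered libraries correlated at 0.0287, 0.0359 and -0.0076, and those of libraries with other numbers at -0.0511 to 0.0235. With 3 libraries per group these values cannot settle whether the numbers pair the cultures. With the replicate number as a block 1337 genes passed, 1269 of them also without it, and 2 members, Cd276 and Nt5e.

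Counts in the lists are small and moved as follows; the cause was not tested. Other ligands (4) came to 2 with quantile normalization, 2 with the block and 1 without the filter, and to 2 to 3 with a library left out. Receptors (1) came to 2 with a pseudocount of 1, a mean of at least 5 FPKM, quantile normalization and scaling to one median. CD47 partners (5) came to 3 in the unmoderated model and with the block, and to 3 to 4 with a library left out. PD-L1 regulators (8) came to 5 in the unmoderated model. Other suppressors (4) came to 2 without the trend, and to 2 to 3 with a library left out. Epithelial markers (7) came to 4 in the unmoderated model and with the block, and to 4 to 5 with a library left out. Leukocyte markers (0) came to 0 to 1 with a library left out. No scaling moved the median of all genes by over 0.1 on the log2 scale.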
